A study of Mus musculus with 24 samples.

Results

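Src family kinases are tyrosine kinases that sit on the inner face of the plasma membrane. Src, Fyn, Yes1, Lyn, Fgr, Lck and Blk are described here together with Csk, the kinase that holds the family in check. These 8 genes were taken by symbol from 55487 gene identifiers, and all 8 were among the 18931 genes that passed the filter on low counts (at least 10 counts in enough libraries of a group). Src was picked because it is high in cells with the fusion gene MLL::ENL. Its difference between those cells and controls is therefore given as a description, without a test, and the counts of changed genes in that comparison run over the other 7.

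RNA was sequenced from mouse progenitors sorted as Lineage-negative, Sca1-positive and KIT-positive (LSK), the fraction that holds blood stem cells and early progenitors. Sorted cells were cultured for 48 h. ME libraries came from Tet-On-ME mice, in which MLL::ENL was switched on in the culture, and control libraries came from mice labelled only as controls. The 6 groups of 4 libraries are ME and control cells from embryonic day 16 (E16) liver, postnatal day 14 (P14) bone marrow and 8-week-old (8wk) bone marrow. Age and tissue therefore cannot be told apart between E16 and the later ages. The inducing agent, its use in the control cultures, the control genotype and the cells in which the Tet-On driver acts are not given in the sources used here. The labels do not say whether replicates are separate animals, so the p-values speak only of the scatter among these libraries, part of which may be technical.

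Each of these kinases other than Csk has a lipid-anchored N terminus, an SH3 and an SH2 domain and a catalytic domain. Csk phosphorylates a tyrosine in the C-terminal tail, the tail folds back onto the SH2 domain, and the kinase is closed. Phosphatases such as those encoded by Ptpra and Ptprc remove that phosphate and open it. In blood cells the family works next to receptors that have no kinase of their own, such as antigen receptors, Fc receptors and integrins, and next to cytokine receptors such as KIT. Src, Fyn and Yes1 are made in many tissues, whereas Lyn, Fgr, Lck and Blk are best known from blood cells.

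The libraries held totals of 33891949 to 69295621 counts, and levels are given as CPM (counts scaled to a fixed library total). By their distance from the rest of their group, 3 libraries stood apart: replicate 4 of E16 ME, replicate 4 of 8wk ME and replicate 1 of 8wk control. The first pair was low in neutrophil markers (91.8 and 135 summed CPM, against 870 to 1527 in the other libraries of those groups), and the last was high (930, against 58.0 to 78.5). All 24 libraries carried Kit (376 to 1763 CPM), Cd34 (764 to 1575) and Ly6a, which encodes Sca1 (61.9 to 827), and Cd3e, a T cell marker, stayed at 0 to 0.0802 CPM. Mllt1, the mouse gene for ENL, was higher in ME at every age, by 1.54 ± 0.29, 1.60 ± 0.29 and 1.48 ± 0.29 (log2 fold change ± SE; adjusted p = 6.0e-04, 3.6e-04 and 7.2e-04, edgeR quasi-likelihood test, Benjamini-Hochberg over 18931 genes). All log2 fold changes and adjusted p-values that follow come from that fit. A gene was called where the adjusted p was under 0.05.

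Src and Fyn were both higher in all ME groups and Yes1 was not, so the 250 bases before a RefSeq start of each are set side by side. They come from the RefSeq promoter table for GRCm38.p6, which held 8 entries for 6 of the 8 genes, and capitals mark the searched motifs. The Src and Fyn windows lie inside their annotated gene spans, which begin at 157418444 and 39368855, so starts further upstream are annotated too. Which start these cells use was not tested. The Src window is chr2:157424043-157424292, the Fyn window chr10:39369549-39369798 and the Yes1 window chr5:32610921-32611170, all on the plus strand.
Src: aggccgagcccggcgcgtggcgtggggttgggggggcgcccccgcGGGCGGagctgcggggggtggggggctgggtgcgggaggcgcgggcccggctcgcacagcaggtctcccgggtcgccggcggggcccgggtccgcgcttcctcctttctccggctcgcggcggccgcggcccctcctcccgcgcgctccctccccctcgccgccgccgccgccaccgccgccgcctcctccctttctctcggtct
Fyn: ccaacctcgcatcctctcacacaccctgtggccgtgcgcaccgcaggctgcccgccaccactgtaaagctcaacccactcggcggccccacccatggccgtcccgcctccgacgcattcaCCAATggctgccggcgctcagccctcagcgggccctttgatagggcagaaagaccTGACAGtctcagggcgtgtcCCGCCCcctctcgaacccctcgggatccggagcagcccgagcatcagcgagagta
Yes1: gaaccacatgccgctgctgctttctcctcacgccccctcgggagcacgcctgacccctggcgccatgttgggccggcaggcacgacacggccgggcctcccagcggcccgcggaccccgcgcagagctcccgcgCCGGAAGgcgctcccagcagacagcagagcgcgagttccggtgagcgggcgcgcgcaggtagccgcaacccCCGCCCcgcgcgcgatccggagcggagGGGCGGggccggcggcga
The 3 windows are rich in CpG: 40 in Src, 21 in Fyn and 37 in Yes1, against a median of 6 over all 32851 windows of the table. Both strands were searched for 5 short motifs, and the matches shown do not overlap. The GC box, GGGCGG, was found 1 time in Src, 1 time in Fyn and 2 times in Yes1, and 32.7% of all windows held it. The CCAAT box, spelled by its name and held by 33.8% of all windows, stood 1 time in the Fyn window and not in the others. The MEIS-type motif TGACAG, held by 15.9%, also stood 1 time in the Fyn window alone. The ETS-type motif CCGGAAG, held by 6.91%, stood 1 time in the Yes1 window. The TATA box, TATAAA, held by 12.4%, was in 0 of the 3.

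Levels of different genes were compared per length, as RPKM (CPM per kilobase of merged exons). In controls of every age Lyn and Csk had the highest means and Lck came next. In E16 controls, Lyn stood at 32.7 ± 2.0 RPKM (mean ± SD, n = 4), Csk at 22.6 ± 2.3 and Lck at 14.9 ± 1.2, each pair of neighbours separate in every library. Fgr (3.23 ± 2.01 RPKM) and Fyn (2.83 ± 1.40 RPKM) followed with overlapping ranges, then Yes1 (1.53 ± 0.24 RPKM), with Src (0.236 ± 0.123 RPKM) and Blk (0.229 ± 0.102 RPKM) last and overlapping. In ME cells the order changed in its middle. Fyn followed Lyn and Csk in mean RPKM at every age, at 16.5 ± 1.7 in E16, 22.5 ± 3.0 in P14 and 17.2 ± 1.4 in 8wk, and its range overlapped that of Lck at E16 and P14 but not at 8wk. Src came next in all 3 ME groups, below Lck and above the remaining genes in every library.

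Src, the founding member of the family, was nearly silent in controls and well expressed in ME cells. At E16 the ME libraries held 32.0, 36.3, 41.3 and 32.7 CPM of Src, and the controls 1.71, 1.20, 0.501 and 0.716. At P14 the values were 34.5, 31.8, 20.3 and 20.2 CPM in ME and 1.87, 0.867, 1.23 and 0.641 in controls. At 8wk they were 26.3, 28.2, 32.7 and 27.0 CPM in ME and 2.30, 1.13, 0.436 and 0.494 in controls. Every ME library lay above every control library of its age, and the 3 ME groups overlapped one another. The P14 ME group was split, with replicates 1 and 2 above replicates 3 and 4. The fitted log2 fold changes were 5.09 ± 0.47 at E16, 4.54 ± 0.46 at P14 and 4.69 ± 0.46 at 8wk, which are 34.1-fold, 23.3-fold and 25.7-fold. The control groups rested on 186, 265 and 256 counts of Src in all.

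**Figure D1:**
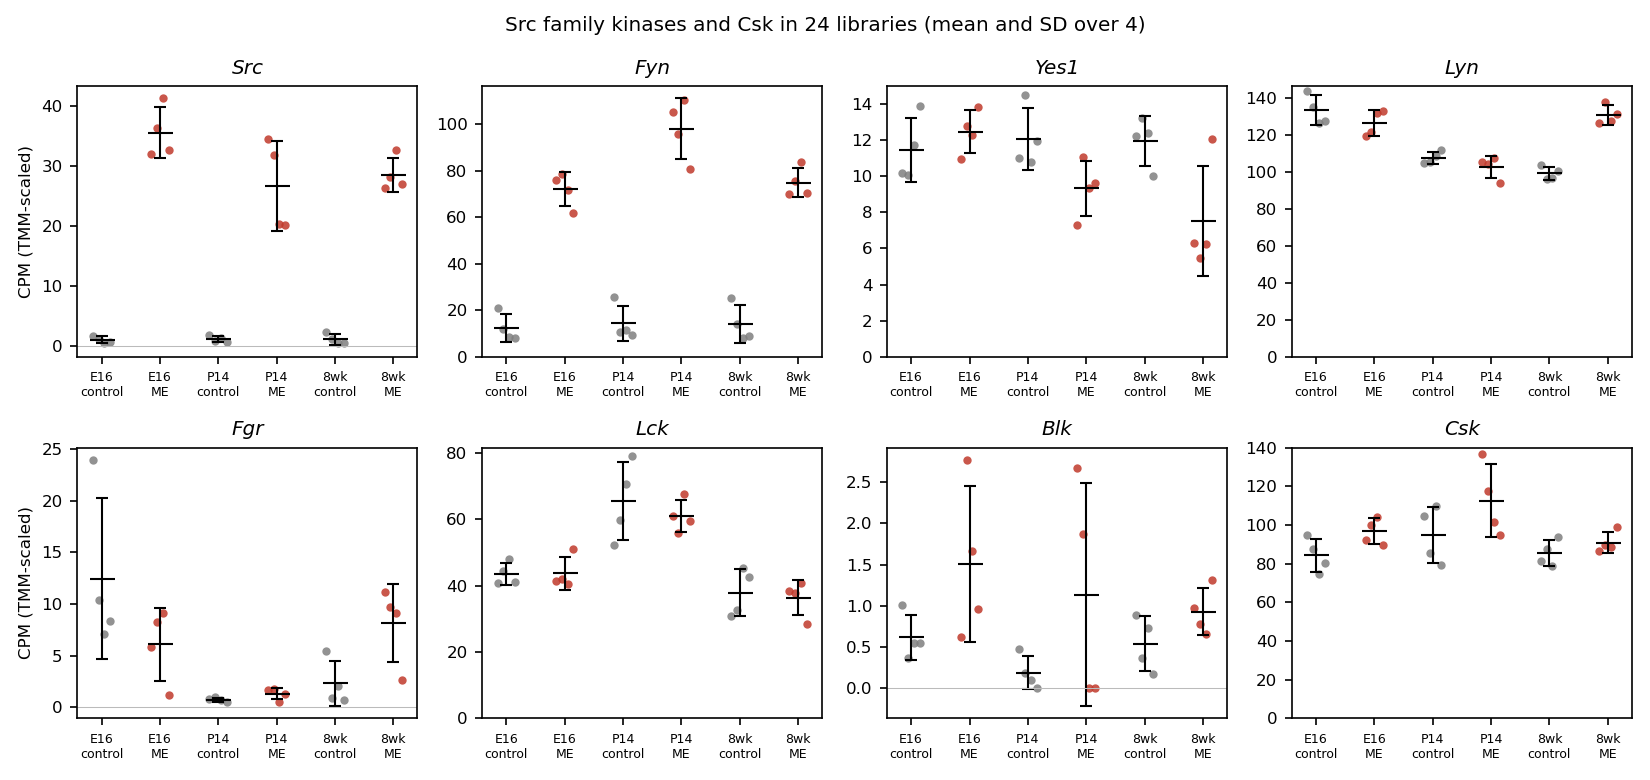
CPM (y axis, linear, per gene) of the 8 genes in each of the 24 libraries, by group (x axis): points are libraries (grey control, red ME), and bars give the mean and SD over 4. The Src and Fyn points of every ME group lie above all control points, whereas the Lck and Csk points of ME and control overlap at each age.

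Fyn, the kinase best known from T cell receptor and adhesion signalling and present in most tissues, was the only one of the 7 tested genes called at all 3 ages. At E16 it stood at 76.0, 78.5, 71.5 and 61.9 CPM in ME and at 21.1, 12.0, 8.33 and 7.90 in controls. At P14 it stood at 105, 95.8, 110 and 80.6 CPM in ME and at 25.8, 10.5, 11.7 and 9.52 in controls. At 8wk it stood at 70.1, 75.5, 83.5 and 70.4 CPM in ME and at 25.4, 13.9, 7.93 and 8.86 in controls. No ME library of any age reached down to a control library. Fyn rose 5.82-fold at E16 (log2 2.54 ± 0.36, adjusted p = 4.9e-05), 6.83-fold at P14 (2.77 ± 0.37, adjusted p = 1.8e-05) and 5.33-fold at 8wk (2.41 ± 0.36, adjusted p = 7.7e-05). No alternative processing ended any of these 3 calls. The Fyn rise was not called different between ages: P14 minus E16 was 0.23 on the log2 scale (interval of 2 SE, -0.74 to 1.20), 8wk minus E16 was -0.13 (-1.10 to 0.85) and 8wk minus P14 was -0.36 (-1.33 to 0.61).

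Within the controls, replicate 1 was the highest library for both Src and Fyn at each of the 3 ages. Fyn in that library was 21.1 CPM at E16, 25.8 at P14 and 25.4 at 8wk, where the other 3 controls did not pass 12.0, 11.7 and 13.9. Genes picked for a pattern most like that of Src or Fyn over these same libraries were highest there too, which that choice favours. Ube2z, for example, stood at 36.1 CPM in replicate 1 of the E16 controls against 19.6 to 24.8 in the other 3. Cdh2 and Il9r, which were 9.45 to 61.0 and 13.6 to 45.7 CPM in ME libraries, were not raised in these libraries. In replicate 1 of the controls Cdh2 was 0.680 CPM at E16, 0.215 at P14 and 0 at 8wk, inside the range of the other 3 controls at each age. Mllt1 was highest in replicate 1 of the controls at each age (26.7, 29.8 and 20.7 CPM, against at most 19.0, 27.7 and 20.3 in the others), and Skida1, 2.30 to 4.39 higher on the log2 scale in ME cells, was not. What sets these 3 libraries apart was not tested. They are the controls with the highest Fyn, so leaving them out enlarges the Fyn change by that choice. It was then 2.93, 3.16 and 2.91 on the log2 scale for E16, P14 and 8wk, given as a description without a test.

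Across the 24 libraries the log2 CPM of Src and Fyn had a Pearson r of 0.978, and of 0.900 after each group's mean was removed. These are descriptions of libraries that share 6 groups and the 3 controls above, with no test. By the same measure the genes most like Src were Ube2z (r = 0.987), Ppm1d (0.986), Otud5 (0.983), Gatad1 (0.982) and Timm29 (0.982). The genes most like Fyn were Slc35e3 (0.995), Josd1 (0.994) and Rbpms (0.994). These genes were picked for their likeness to Src or Fyn over the same libraries, so their rise in ME follows from that choice. All were higher in every ME group mean than in every control group mean. Otud5, for example, had means of 15.2, 14.8 and 16.3 CPM in E16, P14 and 8wk controls, and 77.7, 85.5 and 77.1 CPM in ME.

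**Figure D2:**
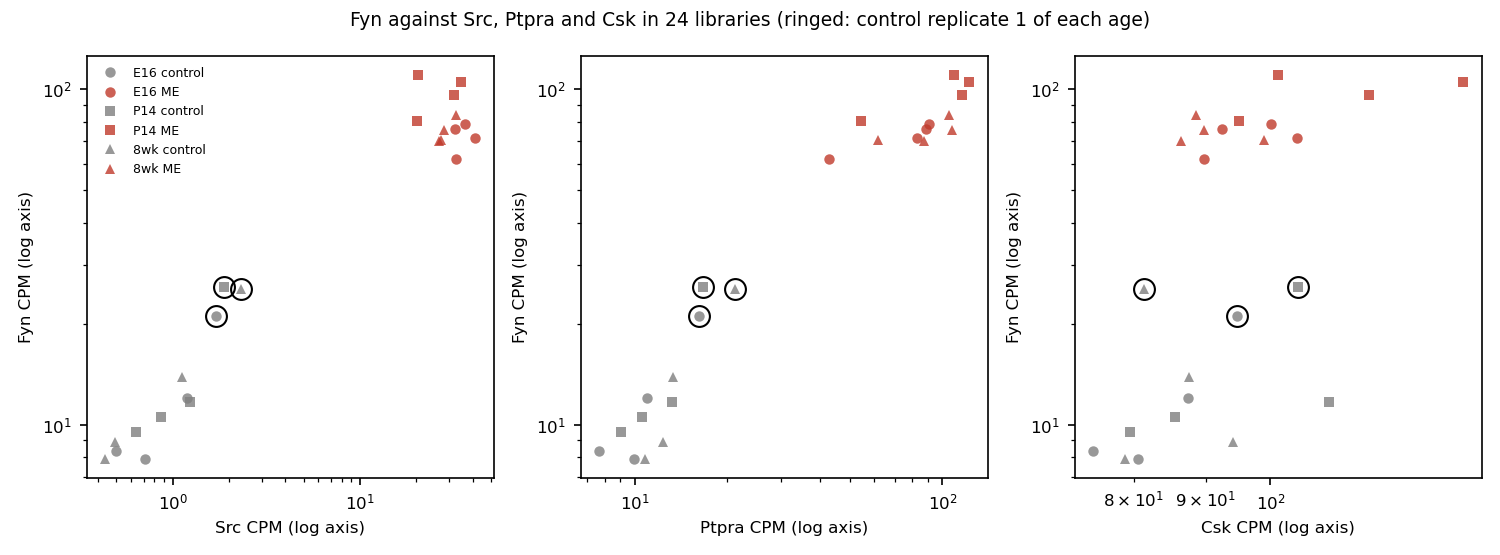
CPM of Fyn (y axis) against CPM of Src, Ptpra and Csk (x axes), all log axes, 1 point per library, with control replicate 1 of each age ringed. Along the Src and Ptpra axes the red ME points stand apart from the grey control points, along the Csk axis they do not, and the ringed libraries are the controls with the highest Fyn.

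The remaining genes showed no change common to the ages. In E16 ME cells 1 of the 7 tested genes was called, Fyn, where 21.8% of all genes tested were called in either direction. In P14 ME cells it was again Fyn alone, 1 of 7, against 22.0% of all genes. At 8wk 4 of 7 were called, Fyn, Lyn and Fgr higher and Yes1 lower, against 28.5% of all genes. With so few members, these shares say little beyond the genes themselves. The median log2 change of the 7 was 0.12 at E16, 0.25 at P14 and 0.40 at 8wk, and that of all genes was 0.02, 0.03 and -0.02.

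**Figure D3:**
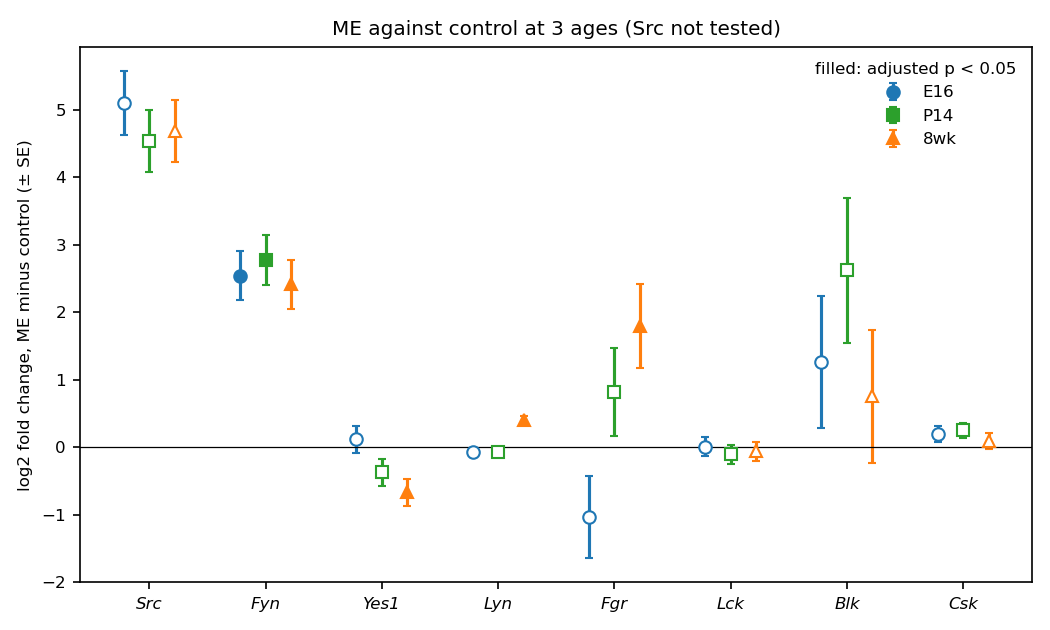
Log2 fold change, ME minus control, with its SE (y axis) for the 8 genes (x axis) at E16, P14 and 8wk. Filled symbols passed an adjusted p of 0.05: Fyn at all 3 ages, and Yes1, Lyn and Fgr at 8wk; Src, not tested, is drawn hollow at 5.09, 4.54 and 4.69.

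Lyn, a kinase of B cells and myeloid cells that both starts and restrains receptor signals, differed in the adult alone. In 8wk ME cells it stood at 126, 138, 128 and 131 CPM, and in 8wk controls at 104, 96.4, 96.6 and 100. All 4 ME libraries lay above all 4 controls. Lyn was higher by 0.40 ± 0.07 on the log2 scale, 1.32-fold (adjusted p = 2.3e-04), and no alternative ended that call. At E16 the ME and control ranges were 120 to 133 and 127 to 144 CPM, and at P14 94.2 to 108 and 105 to 112, both overlapping. The changes there were -0.08 ± 0.07 (adjusted p = 0.47) and -0.06 ± 0.07 (adjusted p = 0.55). Of the exon bases of Lyn, 6.09% overlap Gm26857 on the other strand, and since the strand setting of the counting is not given, reads of the pair there cannot be told apart.

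The age dependence of Lyn was itself called. The 8wk change exceeded the E16 change by 0.47 ± 0.10 on the log2 scale (adjusted p = 0.020), and the P14 change by 0.46 ± 0.10 (adjusted p = 0.038). Lyn was the 1 gene of 7 called in each of these comparisons, where 0.85% and 0.301% of all genes were called. Between P14 and E16 0 of the 7 were called by edgeR or DESeq2, where edgeR called 0.0211% of all genes, and 1 of the 7, Fgr, had an unadjusted edgeR p under 0.05 (0.0495). Both Lyn calls were close to the threshold. The difference to E16 lost its call without replicate 1 or 2 of the E16 controls or without replicate 2 of 8wk ME or of the 8wk controls (adjusted p 0.0530 to 0.0629), with no filter on low counts (adjusted p = 0.16) and with only the groups compared in the fit (adjusted p = 0.072). The difference to P14 lost its call without any 1 of 11 of its 16 libraries (all but replicate 1 of the 2 P14 groups and of the 8wk controls, replicate 4 of 8wk ME and replicate 3 of the 8wk controls) (adjusted p 0.067 to 0.13) and with the replicate number in the model (adjusted p = 0.065). It was also lost when scaled by library size only, with no filter and with only the groups compared (adjusted p = 0.082, 0.25 and 0.15).

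Yes1, a widely made kinase close to Src and Fyn in sequence, moved the other way in the adult. In 8wk ME cells it stood at 6.29, 5.48, 6.22 and 12.1 CPM, and in controls at 12.2, 13.2, 12.4 and 10.0. Replicates 1 to 3 of ME were below every control, and replicate 4, which also stands apart in its myeloid markers, lay among them. Yes1 fell by 0.67 on the log2 scale (SE 0.20, adjusted p = 0.016). Once the 3 libraries that stand apart were left out, the change was -0.99, given as a description without a test. They include the 8wk ME library with the highest Yes1, so leaving them out enlarges the fall by that choice. The call was lost without replicate 2 or 3 of 8wk ME or replicate 3 of the 8wk controls (adjusted p 0.065, 0.056 and 0.062), and when only the 8wk libraries were fitted (adjusted p = 0.13). At E16 Yes1 ranged over 11.0 to 13.8 CPM in ME and 10.1 to 13.9 in controls (change 0.12 ± 0.20, adjusted p = 0.72). At P14 it ranged over 7.29 to 11.0 in ME and 10.8 to 14.5 in controls (change -0.37 ± 0.20, adjusted p = 0.20). The 8wk change was below the E16 change by 0.79 (SE 0.28), which was not called (adjusted p = 0.18), but was called without replicate 4 of 8wk ME (-1.12, adjusted p = 0.0062). Of the exon bases of Yes1, 8.46% overlap Gm10461 on the other strand.

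Fgr, a kinase of neutrophils, monocytes and macrophages that acts below integrins and Fc receptors, was spread widely within groups. In 8wk ME cells it stood at 11.2, 9.67, 9.09 and 2.63 CPM, and in 8wk controls at 5.47, 0.944, 2.09 and 0.751. The groups overlapped through replicate 4 of ME and replicate 1 of the controls. Fgr rose by 1.80 ± 0.62 on the log2 scale (adjusted p = 0.036). Once the 3 libraries that stand apart were left out, the change was 2.96, given as a description without a test. They include the 8wk ME library with the lowest Fgr and the 8wk control with the highest. Leaving them out therefore enlarges the change by that choice. With all libraries in, leaving out any 1 of replicates 1, 2 and 3 of 8wk ME or replicates 2, 3 and 4 of the 8wk controls ended the call (adjusted p 0.070 to 0.11). So did fitting only the 8wk libraries (adjusted p = 0.093) or using no filter on low counts (adjusted p = 0.11). At E16 the values were 5.81, 8.25, 9.10 and 1.19 CPM in ME and 24.0, 10.4, 7.13 and 8.37 in controls (change -1.04 ± 0.61, adjusted p = 0.24). At P14 both groups were low, at 0.536 to 1.77 CPM in ME and 0.540 to 1.00 in controls (change 0.82 ± 0.65, adjusted p = 0.40).

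Markers of mature myeloid cells moved with Fgr. The summed CPM of 10 neutrophil markers was 1527, 1354, 997 and 135 in 8wk ME and 930, 75.4, 58.0 and 78.5 in 8wk controls. That of 10 monocyte and macrophage markers was 1041, 1147, 952 and 165 in 8wk ME and 874, 174, 199 and 166 in controls. Of these 10, 6 were called higher and none lower, where 28.5% of all genes were called in either direction. Of the neutrophil markers 1 of 10, Csf3r, was called. The E16 control library with the highest Fgr, replicate 1, also had the highest neutrophil sum, 5736 against 1124 to 1838 in the other 3. The genes most like Fgr over the 24 libraries were Lcn2 (r = 0.960), C5ar1 (0.958) and Fpr2 (0.958). No marker of either list was at 0 in all libraries of the E16 or 8wk groups. In bulk RNA more cells of a type and more RNA per cell cannot be told apart, and the part of these cells in the Fgr values was not tested.

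**Figure D4:**
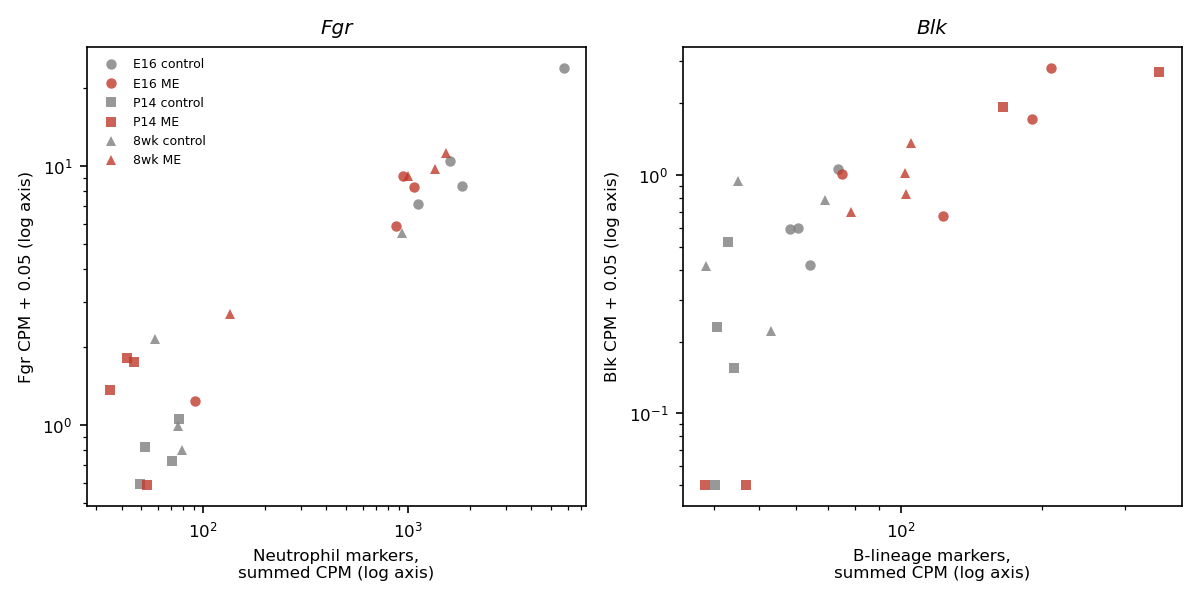
CPM + 0.05 of Fgr and Blk (y axes) against the summed CPM of 10 neutrophil or 10 B-lineage markers (x axes), all log axes, 1 point per library. High Fgr goes with a high neutrophil sum, up to the E16 control at 24.0 CPM, and the pair of P14 ME libraries with Blk above 1 CPM has the highest B-lineage sums of that group.

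Blk, the B-lineage kinase that works below the B cell receptor, was scarce throughout. In P14 ME cells it stood at 2.66, 1.88, 0 and 0 CPM and in P14 controls at 0.473, 0.179, 0.105 and 0. The groups overlapped, since replicates 3 and 4 of ME held no Blk count at all. The change of 2.62 ± 1.08 was not called (adjusted p = 0.087), and it was called without replicate 3 of P14 ME (adjusted p = 0.031) or without replicate 4 (adjusted p = 0.034). At E16 Blk ranged over 0.623 to 2.77 CPM in ME and 0.369 to 1.01 in controls (change 1.26 ± 0.98, adjusted p = 0.39). At 8wk it ranged over 0.652 to 1.32 in ME and 0.172 to 0.893 in controls (change 0.75 ± 0.99, adjusted p = 0.62).

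The summed CPM of 10 B-lineage markers in the P14 ME libraries was 354, 165, 46.8 and 38.4, against 40.4 to 44.3 in P14 controls. Cd79a, a subunit of the B cell receptor, was 76.8, 26.3, 1.41 and 0.207 CPM in the same ME libraries, so the pair of libraries that held Blk had the highest Cd79a. At P14 8 of the 10 markers were called higher and none lower, where 22.0% of all genes were called in either direction. The B-lineage sums were higher in ME at E16 too, at 75.0 to 208 CPM against 58.1 to 73.6 in controls. At 8wk they were 78.4 to 105 CPM in ME and 38.5 to 69.1 in controls. Of the 10 markers, 1 was called higher at E16 and 2 at 8wk, none lower, against 21.8% and 28.5% of all genes. Vpreb3 (r = 0.920), Igll1 (0.916) and Blnk (0.891) were the genes most like Blk. The part of B-lineage cells in the Blk values was not tested.

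Lck, the kinase that T cells hold at the coreceptors CD4 and CD8, followed Lyn and Csk in mean RPKM in controls of every age although T cell markers were nearly absent. Its CPM in ME and control ranged over 40.4 to 51.1 and 40.7 to 48.1 at E16, 55.9 to 67.5 and 52.3 to 79.1 at P14, and 28.5 to 40.8 and 30.9 to 45.2 at 8wk. ME and control overlapped at each age. The changes were 0.01 ± 0.14, -0.10 ± 0.14 and -0.06 ± 0.14 (adjusted p = 0.98, 0.66 and 0.80), and intervals of 2 SE ran from -0.28 to 0.29, from -0.39 to 0.18 and from -0.34 to 0.22. The summed CPM of 10 T and NK cell markers was 8.66 to 16.4 in the E16 and P14 libraries and 2.36 to 5.79 in the 8wk libraries. Among them Cd3d and Ncr1 were at 0 in all P14 controls, Ncr1 in all E16 controls and Cd3e in all 8wk controls. Genes most like Lck were Ighv1-77 (r = 0.836), Slc17a9 (0.825) and Gria2 (0.801).

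Csk, the inhibitor of the family, was not called at any age, though scaling by library size only brought it past the threshold at P14 (0.32, adjusted p = 0.048). Its CPM in ME was 92.5, 100, 104 and 89.8 at E16, 137, 117, 101 and 95.0 at P14 and 86.4, 89.7, 88.5 and 98.9 at 8wk. The control values were 94.7, 87.5, 74.9 and 80.6 at E16, 105, 85.6, 110 and 79.5 at P14 and 81.4, 87.5, 78.9 and 94.0 at 8wk. The groups overlapped at each age. The changes were 0.20 ± 0.12, 0.25 ± 0.12 and 0.09 ± 0.12 (adjusted p = 0.25, 0.14 and 0.61), with intervals of 2 SE from -0.04 to 0.43, from 0.02 to 0.48 and from -0.14 to 0.32. All 3 intervals lie below a change of 0.5 on the log2 scale.

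Summed per length, the RNA of the family was higher in ME cells at all 3 ages, and without Fyn and Src the sums of ME and control overlapped at E16 and P14. The summed RPKM of the 7 kinases without Csk was 55.6 ± 4.8 in E16 controls and 74.4 ± 2.2 in E16 ME (mean ± SD, n = 4). It was 54.2 ± 3.4 and 76.6 ± 6.1 at P14, and 43.2 ± 2.2 and 71.7 ± 3.7 at 8wk. The ranges of ME and control did not overlap at any age. No test is given for these sums, since Src was picked for its rise. Without Src and Fyn the sums were 52.6 ± 3.3 and 49.8 ± 2.6 RPKM at E16 and 50.6 ± 4.7 and 48.1 ± 2.5 at P14, both overlapping, and 39.7 ± 2.0 and 48.0 ± 2.3 at 8wk, where they did not overlap.

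The share of Src in the summed RPKM was 0.414% ± 0.183 in E16 controls and 10.9% ± 1.0 in E16 ME. At P14 it was 0.494% ± 0.246 and 7.94% ± 1.98, and at 8wk 0.570% ± 0.429 and 9.10% ± 0.62. The share of Fyn was 4.95% ± 1.97 and 22.2% ± 2.4 at E16, 6.18% ± 3.53 and 29.2% ± 1.8 at P14, and 7.38% ± 3.92 and 23.9% ± 1.1 at 8wk. Lyn held 58.9% of the E16 control sum, 48.8% at P14 and 56.5% at 8wk, and 41.7%, 33.0% and 44.9% of the ME sums. The ratio of Fyn to Src RPKM was 12.5 ± 2.9, 12.6 ± 2.3 and 14.9 ± 3.7 in E16, P14 and 8wk controls, and 2.04 ± 0.28, 3.88 ± 1.13 and 2.63 ± 0.06 in ME. The summed RPKM of the 7 kinases per RPKM of Csk was 2.47 ± 0.13, 2.18 ± 0.42 and 1.90 ± 0.21 in controls and 2.88 ± 0.15, 2.58 ± 0.33 and 2.96 ± 0.29 in ME. At P14 the ranges of this ratio overlapped (1.85 to 2.75 in controls, 2.21 to 2.98 in ME), and at E16 and 8wk they did not. Src, picked for its rise in ME, is part of this sum, and that choice favours the separation. No test is given for these shares and ratios.

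**Figure D5:**
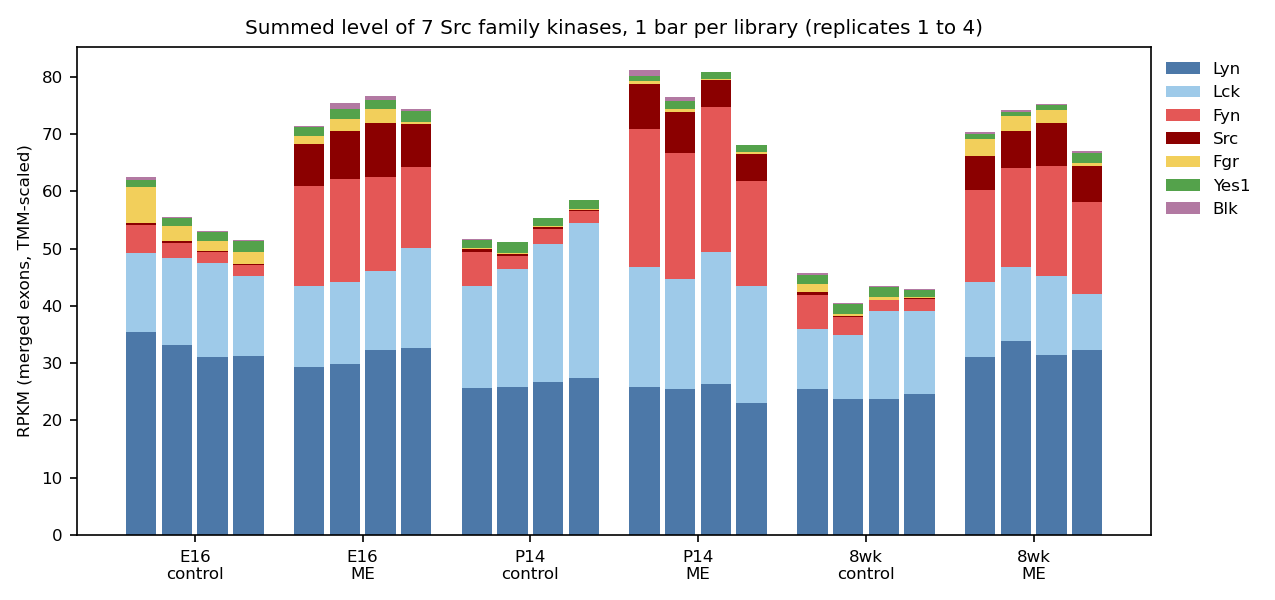
Summed RPKM (y axis) of the 7 kinases, 1 stacked bar per library, grouped by age and by control or ME (x axis), with each colour 1 kinase. ME bars reach 67.1 to 81.1 and control bars 40.5 to 62.4, and the Fyn and Src segments (light and dark red) are taller in every ME bar than in every control bar.

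Among controls, Lyn, Fgr and Lck were called different between ages, and Src, Fyn, Yes1, Blk and Csk were not called between any pair of ages. Lyn and Fgr were called only against E16, where age and tissue cannot be told apart. Between P14 and E16 controls 3 of 8 genes were called (Lck higher, Lyn and Fgr lower), against 15.1% of all genes. Between 8wk and E16 controls 2 of 8 were called (Lyn and Fgr lower), against 23.3%, and between 8wk and P14 controls 1 of 8 (Lck lower), against 12.6%. These comparisons share control libraries with one another and with the ME comparisons.

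Lck stood at 40.7, 44.3, 48.1 and 41.0 CPM in E16 controls, at 52.3, 59.9, 70.7 and 79.1 in P14 controls and at 30.9, 32.8, 45.2 and 42.6 in 8wk controls. Every P14 library was above every library of the other ages. Lck was higher at P14 than at E16 by 0.59 ± 0.14 on the log2 scale (adjusted p = 0.0057), and at 8wk fell by 0.79 against P14 (SE 0.14, adjusted p = 0.0014). Lyn went from 127 to 144 CPM in E16 controls to 105 to 112 in P14 and 96.4 to 104 in 8wk controls. The E16 libraries were above all later ones. Lyn fell by 0.31 from E16 to P14 (SE 0.07, adjusted p = 0.0031) and by 0.43 from E16 to 8wk (SE 0.07, adjusted p = 9.6e-05). The first of these calls was lost with no filter on low counts (-0.26, adjusted p = 0.12) and without replicate 1 of all 3 control groups (-0.22, adjusted p = 0.088).

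Fgr was high in fetal controls and low after birth, at 7.13 to 24.0 CPM at E16, 0.540 to 1.00 at P14 and 0.751 to 5.47 at 8wk. It fell by 4.06 from E16 to P14 (SE 0.69, adjusted p = 3.3e-04) and by 2.41 from E16 to 8wk (SE 0.64, adjusted p = 0.0084). The summed neutrophil markers were 1124 to 5736 CPM in E16 controls, 49.3 to 76.7 in P14 and 58.0 to 930 in 8wk controls, and their part in these changes was not tested. Matk, a relative of Csk, was higher than at E16 in P14 controls (48.0 ± 6.8 against 28.7 ± 2.9 CPM, log2 0.74 ± 0.16, adjusted p = 0.0028).

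Receptors, regulators and substrates of the family were read across age in controls as well, where 15.1% of all genes were called at P14 against E16 and 23.3% at 8wk against E16. Of 23 receptors tested, 0 were called higher and 10 lower at P14 than at E16, and 1 higher and 11 lower at 8wk, with medians of -0.71 and -1.09 on the log2 scale against 0.01 and 0.05 for all genes. Fcer1g went from 181 ± 24 CPM at E16 to 110 ± 21 at P14 (adjusted p = 8.3e-04), and was 109 ± 15 at 8wk (adjusted p = 4.6e-04 against E16). The T cell costimulatory receptor gene Cd28 went from 52.9 ± 7.2 CPM at E16 to 14.7 ± 3.0 at 8wk (log2 -1.85 ± 0.24, adjusted p = 4.9e-06). The neutrophil sums given with Fgr were lower after E16 too. Summed monocyte and macrophage markers were 481 to 1375 CPM in E16, 59.5 to 120.1 in P14 and 166 to 874 in 8wk controls, with 9 of 10 called lower at P14 and 5 of 10 at 8wk. Summed megakaryocyte and platelet markers were 367 to 853, 85.9 to 184 and 249 to 656 CPM, with 7 and 6 of 9 called lower. Csf1r, Itgb3 and Gp6, among the receptors called lower at both ages, are also on these marker lists, and the part of such cells was not tested. Of 27 substrates, 3 were higher and 1 lower at P14 than at E16, and 7 higher and 3 lower at 8wk. The adaptor gene Lat2 rose from 45.3 ± 7.1 CPM at E16 to 84.8 ± 9.9 at P14 (adjusted p = 7.4e-04), and was 111 ± 30 at 8wk (adjusted p = 9.8e-06 against E16). Of 16 regulators, 1 was higher and 1 lower at P14, and 3 higher and 6 lower at 8wk. At P14 the called shares of substrates and regulators were not above that of all genes.

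The regulators of the family were read from a list of 17 genes, of which 16 were tested. In E16 ME cells 2 were called higher and 1 lower, in P14 1 higher and 2 lower, and in 8wk 4 higher and 1 lower, shares near the 21.8%, 22.0% and 28.5% of all genes called. The list's median change was 0.10, 0.06 and 0.07 on the log2 scale, against 0.02, 0.03 and -0.02 for all genes. Ptpra, the receptor phosphatase that takes the inhibitory phosphate off Src and Fyn, was the regulator that rose at all 3 ages. It stood at 88.8, 90.5, 82.8 and 42.8 CPM in E16 ME and 16.2, 10.9, 7.67 and 9.96 in E16 controls. At P14 it stood at 123, 115, 109 and 54.3 in ME and 16.7, 10.6, 13.2 and 9.06 in controls, and at 8wk at 87.1, 108, 106 and 61.7 in ME and 21.3, 13.4, 10.8 and 12.4 in controls. ME replicate 4 was the lowest of the ME libraries at each age, and still above every control. Ptpra rose by 2.77 ± 0.31, 3.02 ± 0.31 and 2.64 ± 0.31 (adjusted p = 3.6e-06, 1.2e-06 and 6.1e-06), and no alternative ended these calls.

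Other regulators changed less. Ptpn6, the phosphatase SHP-1 that opposes kinase signals in blood cells, fell by 0.51 at E16 (SE 0.11, adjusted p = 0.0023) and by 0.49 at P14 (SE 0.11, adjusted p = 0.0030). Sla2, an adaptor that damps receptor signals, fell by 0.60 at P14 (adjusted p = 0.032) and by 0.63 at 8wk (adjusted p = 0.019). Cblb, a ubiquitin ligase that removes active kinases, was higher at E16 by 0.48 ± 0.15 (adjusted p = 0.023). At 8wk the phosphatase gene Ptpn22 was higher by 0.36 ± 0.11 (adjusted p = 0.018) and the inhibitory adaptor gene Dok3 by 1.61 ± 0.49 (adjusted p = 0.018). The Sla2, Cblb, Ptpn22 and Dok3 calls were each lost without at least 1 single library of their groups, with adjusted p up to 0.11 for Sla2 at P14, 0.092 for Sla2 at 8wk, 0.090 for Cblb, 0.065 for Ptpn22 and 0.069 for Dok3. Each was lost under 1 or 2 other settings too, with adjusted p from 0.052 (Cblb without the 3 libraries that stand apart) to 0.13 (Sla2 at 8wk with only the groups compared).

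Receptors that use these kinases were read from a list of 24, with 23 tested. None was called higher and 4 lower in E16 ME, 3 higher and 1 lower in P14, and 10 higher and 1 lower in 8wk, where 21.8%, 22.0% and 28.5% of all genes were called, with medians of -0.06, 0.08 and 0.89 against 0.02, 0.03 and -0.02 for all genes. At 8wk Kit, the receptor for stem cell factor, went from 487 ± 91 to 1463 ± 303 CPM (log2 1.59 ± 0.17, adjusted p = 2.3e-06). Fcer1g, the signalling chain of Fc receptors, went from 109 ± 15 to 205 ± 17 CPM (0.91 ± 0.14, adjusted p = 6.5e-05). The change of Kit at 8wk exceeded that at E16 by 1.11 ± 0.24 (adjusted p = 0.027) and that at P14 by 1.48 ± 0.24 (adjusted p = 0.016). The change of Fcer1g exceeded that at E16 by 0.91 ± 0.19 (adjusted p = 0.024) and that at P14 by 0.89 ± 0.19 (adjusted p = 0.046). Of these 4 differences, all but that of Kit to P14 were lost without several single libraries (adjusted p up to 0.070 for Kit to E16, 0.068 for Fcer1g to E16 and 0.14 for Fcer1g to P14). With only the groups compared in the fit, both differences to P14 (adjusted p = 0.072 for Kit and 0.15 for Fcer1g) and that of Kit to E16 (adjusted p = 0.054) were lost. That of Kit to E16 was also lost with no filter (adjusted p = 0.051), and that of Fcer1g to P14 with library size only or limma-voom (adjusted p = 0.069 and 0.062). The integrin genes Itgb2 (39.0 ± 21.1 to 145 ± 48 CPM) and Itgam (2.25 ± 2.42 to 13.7 ± 5.7 CPM) rose with adjusted p of 4.7e-04 and 0.0024. The monocyte and macrophage marker sums given beside Fgr moved with these genes, and their part was not tested.

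At E16 the receptor genes that fell were Csf2rb, a shared cytokine receptor chain, by 0.91 (adjusted p = 0.0013), and a platelet group. That group was Itgb3 (by 1.99, adjusted p = 0.0035), Itga2b (by 1.19, adjusted p = 0.0093) and the collagen receptor gene Gp6 (by 3.40, adjusted p = 0.021). Itgb3, Itga2b and Gp6 are also on the list of 9 megakaryocyte and platelet markers. Of these 9, 7 were called lower at E16, where 21.8% of all genes were called in either direction. Their summed CPM was 110 to 175 in ME and 367 to 853 in controls. The Gp6 call was lost without replicate 1 of E16 ME or replicate 3 of the E16 controls, with DESeq2 and with no filter (adjusted p = 0.051, 0.066, 0.062 and 0.065). At P14 Csf2rb fell again, by 0.89 (adjusted p = 0.0015). Cd79a was higher at P14 by 5.09 ± 1.17 (adjusted p = 0.0038), through the pair of ME libraries that held Blk, and lost its call with limma-voom (adjusted p = 0.16) and with only the P14 groups fitted (adjusted p = 0.060).

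Substrates and adaptors were read from a list of 28, with 27 tested. At E16 4 were called higher and 2 lower, at P14 5 and 4, and at 8wk 4 and 2, where 21.8%, 22.0% and 28.5% of all genes were called, with medians of -0.04, -0.04 and 0.22 against 0.02, 0.03 and -0.02 for all genes. Vav3, an exchange factor that acts below antigen receptors and integrins, rose at all ages, from 14.6 ± 2.1 to 64.8 ± 16.7 CPM at E16, 16.3 ± 2.5 to 78.6 ± 18.9 at P14 and 19.0 ± 4.6 to 76.4 ± 20.3 at 8wk. Its log2 changes were 2.14 ± 0.23, 2.27 ± 0.23 and 2.01 ± 0.23 (adjusted p = 1.4e-06, 6.0e-07 and 3.2e-06). Plcg1, a phospholipase C that the kinases help to activate, rose by 1.55 ± 0.25, 1.42 ± 0.25 and 1.68 ± 0.25 (adjusted p = 1.4e-04, 2.8e-04 and 6.1e-05). No alternative ended the calls of Vav3 or Plcg1. The 4 genes of this list called lower at P14 were Syk, Plcg2, Ptk2b and Vav1.

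Ptk2, which encodes focal adhesion kinase, a partner of Src at adhesion sites, was called higher at all 3 ages as well, at 8wk by 0.81 ± 0.21 (adjusted p = 0.0070). Crk, an SH2 and SH3 adaptor, was higher at E16 by 1.27 ± 0.23 (adjusted p = 5.2e-04) and at P14 by 1.01 ± 0.23 (adjusted p = 0.0032). Lat, an adaptor of T cells, mast cells and platelets, fell by 0.70 at E16 (adjusted p = 0.0014) and by 0.84 at 8wk (adjusted p = 2.4e-04). Blnk, an adaptor of B-lineage cells, was higher at P14 by 4.38 ± 1.05 (adjusted p = 0.0051) with the same pair of libraries as Cd79a. The Blnk call was lost with limma-voom (adjusted p = 0.17) and with only the P14 groups fitted (adjusted p = 0.069).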

How the data were processed

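The authors deposited whole-number counts for each Ensembl gene in every library. Per the submitters' processing notes, the tools were STAR 2.7.9a, Subread with featureCounts 2.0.3, and the build GRCm38; the annotation release and the strand setting are not given in the sources used here. The 55774 lines hold 55487 identifiers, since 168 identifiers recur with the same counts, of which 1 copy was used; 55141 are in GENCODE M21 (exon lengths, overlaps). Within a library, 63.6% (median) of counts from 1 to 20 were even, a pattern that counting both mates of a pair would give; counts may then not be independent reads.

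Genes were filtered with filterByExpr (minimum count 10) and fitted with edgeR 4.0.16 in R 4.3.3: TMM factors, robust quasi-likelihood test, 6 group means over all 24 libraries, Benjamini-Hochberg adjustment over 18931 genes. CPM were TMM-scaled. The test was also run on simulated counts drawn independently for each library. They held no excess of even counts and no library that stands apart, so that run cannot speak for those features. Alternatives were DESeq2 1.42.0, library size alone, no filter, limma-voom (limma 3.58.1), only the groups compared, a replicate block, a GC correction and each library left out. Leaving out the 3 libraries that stand apart, and replicate 1 of the 3 control groups, was added after seeing the data.

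The genes described and the lists were chosen with earlier results of these data known. All 8 genes are named; 1 more gene that the rule named is not reported here. From each pathway list, up to 4 called genes with the smallest adjusted p per comparison are named where the higher group reached 1 CPM. Genes of like pattern are the 5 (Src) or 3 (others) with the highest Pearson r of log2(CPM + prior count 2), clone-type symbols passed over. The replicate numbers were checked for pairing: at P14, the deviations of same-numbered ME and control libraries correlated at 0.137 to 0.232, so the numbers count as pairs there by that measure alone. The reported tests do not use these pairs. The replicate block shares its terms across all ages, so pairs at P14 alone were not modelled.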

Additional observations from a re-analysis of the deposited data

Results flagged for a closer look

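In 3 of 48 groups of 4 libraries looked at (the 8 genes in 6 groups), 1 library lay far from the other 3 by Dixon's criterion, where chance alone would give about 1 in 20 groups, or 2.4. Fyn stood at 25.8 CPM in replicate 1 of the P14 controls, against 9.52 to 11.7 in the others. Yes1 stood at 12.1 CPM in replicate 4 of 8wk ME, against 5.48 to 6.29. Lck stood at 51.1 CPM in replicate 4 of E16 ME, against 40.4 to 42.0.

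The change of Lyn in ME cells differed between ages by a test of the difference: 8wk exceeded E16 by 0.47 on the log2 scale (adjusted p = 0.020, edgeR) and P14 by 0.46 (adjusted p = 0.038, edgeR). Both calls were lost with no filter, with only the groups compared and without some single libraries (4 for E16, 11 for P14), and that to P14 also with library size only and the replicate block.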

How the results depend on the processing

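The rises of Fyn at 3 ages, of Ptpra, Vav3 and Plcg1 at 3 ages and of Lyn at 8wk kept direction and call under every alternative run. The calls of Yes1 and Fgr at 8wk and of Lyn between ages rest on 4 libraries a group and each was lost without single libraries, and under other settings, named in the text. Src folds rest on control levels near 1 CPM, Blk values on counts near 0, and the part of other cell types by bulk RNA. Leaving out the 3 libraries that stand apart, or the 3 controls numbered 1, was chosen after seeing the data.

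The number of members called (of 7 in ME comparisons) was 2 at P14 with library size only and 2 at 8wk with only the groups compared. For the ME effect at 8wk minus E16 it was 2 with DESeq2, with the replicate block and without the 3 controls numbered 1, 3 without the 3 libraries that stand apart, and 0 with no filter or only the groups compared. For 8wk minus P14 it was 0 with library size only, no filter, only the groups compared or the replicate block. Leaving out 1 library gave 1 to 2 at P14, 2 to 4 at 8wk, 0 to 3 for 8wk minus E16 and 0 to 1 for 8wk minus P14.

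The number of all genes called at 8wk was 2907 with only the groups compared, and 3433 (without 8wk control replicate 3) to 6571 (without 8wk control replicate 1) with 1 library left out. For P14 minus E16 it was 29 with DESeq2, 10 without the 3 libraries that stand apart, 1 without the 3 controls numbered 1, and 1 to 5 with 1 library left out. For 8wk minus E16 it was 603 with DESeq2, 107 with no filter, 55 with only the groups compared, 357 with the replicate block, 254 with the GC correction, 1362 without the 3 libraries that stand apart and 374 without the 3 controls. It was 48 without 8wk control replicate 2 and 896 without 8wk control replicate 1. For 8wk minus P14 it was 298 with DESeq2, 0 with only the groups compared, 1009 without the 3 libraries and 300 without the 3 controls, and 4 (without P14 ME replicate 4) to 369 (without 8wk control replicate 1). Between 8wk and P14 controls it was 1483 with no filter, 1092 with only the groups compared and 3605 without the 3 libraries, and 929 (without P14 control replicate 3) to 3115 (without 8wk control replicate 1).

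Changes of sign concerned log2 values that were not called. With library size only, Lyn was 0.015 at E16 and 0.012 at P14, and -0.0029 for P14 minus E16. The last was -0.018 with no filter, -0.036 with only the groups compared and -0.093 without the 3 controls numbered 1. Without the 3 libraries that stand apart, Lck was -0.076 at E16 and 0.030 for 8wk minus E16, and Fyn was 0.29 for 8wk minus E16, 0.13 for 8wk minus P14 and -0.27 for 8wk against E16 controls, where Src was -0.64. Without the 3 controls numbered 1, Lck was -0.023 at E16, Csk -0.0097 for P14 minus E16, and Src -0.25 and Yes1 -0.015 for 8wk against E16 controls. With the GC correction, Csk was -0.073 at 8wk and -0.046 for P14 minus E16, Lck -0.022 for 8wk minus P14, Yes1 -0.10 for 8wk against E16 controls and Src 0.10 for 8wk against P14 controls. With limma-voom, Blk was -0.41 for P14 minus E16 (1.36 in the reported fit) and 0.16 for 8wk minus P14 (-1.87), and Src -0.069 for 8wk against E16 controls. Csk in that comparison was -0.0040 with DESeq2 and -0.017 with only the groups compared. The cause was not tested.

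With 1 library left out, Lck ranged from -0.076 to 0.058 at E16, -0.15 to 0.076 at 8wk, -0.15 to 0.059 for 8wk minus E16 and -0.060 to 0.23 for 8wk minus P14. Fyn ranged from -0.16 to 0.62 for P14 minus E16, -0.52 to 0.33 for 8wk minus E16 and -0.72 to 0.10 for 8wk minus P14. For P14 minus E16, Lyn ranged from -0.055 to 0.051 and Csk from -0.056 to 0.13. In controls, P14 against E16, Src ranged from -0.14 to 0.53, Fyn from -0.18 to 0.61 and Yes1 from -0.028 to 0.21. In controls, 8wk against E16, Src ranged from -0.63 to 0.48, Fyn from -0.27 to 0.58, Blk from -0.54 to 0.17 and Csk from -0.034 to 0.079. In controls, 8wk against P14, Src ranged from -0.77 to 0.23, Fyn from -0.49 to 0.37 and Yes1 from -0.098 to 0.09. The extremes of Src and Fyn in controls came from leaving out replicate 1 of one of the groups compared.

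With the replicate number as a block, Yes1 was 0.0028 for 8wk against P14 controls. Same-numbered ME and control libraries did not deviate together at E16 (correlation -0.0434 to 0.000655, 0 of 8 libraries best with their own number) or at 8wk (-0.0882 to 0.118, 2 of 8). At P14 5 of 8 were best with their own number. Apart from the counts above, the block ended the call of Lyn for 8wk minus P14 (0.46, adjusted p = 0.065) and made that of Fgr for 8wk minus E16 (2.96, adjusted p = 0.032), both edgeR.

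The share of calls that were higher was 61.1% at E16, 57.5% at P14 and 49.8% at 8wk. With library size only, which moved the median of all genes to 0.11 at E16 and P14, it was 74.6%, 70.5% and 56.6%. It was 46.9% at P14 with the GC correction, 67.9% at 8wk with only the groups compared, and in 8wk against P14 controls 55.7%, 43.2% with library size only and 43.7% with only the groups compared.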
